A study of Mus musculus with 6 samples.

Results

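The antioxidant and glutathione genes are the enzymes and regulators that remove peroxides, superoxide, quinones and reactive aldehydes, or that make and use glutathione, the main small thiol of the cell. They were chosen by symbol, as every gene of the array whose symbol belongs to the glutathione transferases, glutathione peroxidases, peroxiredoxins, thioredoxins and their reductases, superoxide dismutases, catalase, quinone reductases, heme oxygenases, glutathione synthesis enzymes, sulfiredoxin, or the NRF2 and KEAP1 regulators. The rule also took the aldehyde dehydrogenases from Aldh2 to Aldh9a1, and no symbol that begins with Aldh1. The rule found 68 of 19057 genes with a single symbol, on 128 of 45281 probes, and 59 of them were detected well enough to be tested, among 12242 genes in all. Gsr, Prdx5 and Prdx6 also fall under it by name and were not analysed here.

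The data came from 6 mouse gliomas measured on Illumina bead arrays, 2 HoxA5 tumours and 4 mCherry tumours. All 6 were RCAS/tva tumours, made with an avian virus that enters only cells carrying the tva receptor, here from the Ntva transgene, which is driven by the nestin promoter of neural progenitors. DF1 chicken fibroblasts producing PDGFb virus were injected into the right frontal cortex of adult mice, mixed with DF1 cells producing either HoxA5 virus or, for the controls, mCherry virus (a fluorescent protein). Every tumour therefore carried the PDGFb driver. The mice were Ntva-Ink4a/Arf+/- or Ntva-Ink4a/Arf-/-, on mixed FVB/N, C57BL6, BALB/C and 129 backgrounds, received no treatment, and were followed until signs of illness. The labels do not say which tumour had which Ink4a/Arf genotype, nor that each tumour came from its own mouse, and the p-values cover the spread among these 6 tumours, which may be partly technical. The comparison asks how raised HoxA5 changes PDGF-driven gliomas.

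Arrays had median intensities of 136.1 to 166.8 and detected 19950 to 21904 probes. The array's own Hoxa5 probe was detected on 0 of 6 arrays (detection p from 0.0652 to 0.771), and whether it covers the part of the transcript that the virus carries is unknown, which leaves the labels unchecked. Levels below are normalized log2 intensities, and a difference is HoxA5 minus mCherry on that log2 scale. A gene was called where limma's Benjamini-Hochberg adjusted p over all genes was under 0.05. The mCherry 4 array correlated with the HoxA5 arrays across the 59 genes at r = 0.982 and 0.983, against 0.939 to 0.977 with the other mCherry arrays. HoxA5 1 and HoxA5 2 correlated with each other at 0.982, so mCherry 4 was as close to them as they were to each other. These correlations describe arrays over shared genes, which are not replicates.

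In healthy cells KEAP1 holds the transcription factor NRF2 (gene Nfe2l2) at a low level, and oxidants or electrophiles release it to bind antioxidant response elements, short DNA motifs near genes of glutathione synthesis, thioredoxin reduction and quinone reduction. A pair of thiol systems then shares the work of removing peroxides. One runs through glutathione, its peroxidases and its transferases, and the other through thioredoxin, its reductase and the peroxiredoxins. In brain, glutathione synthesis and several transferases are known to be prominent in glia, and heme oxygenase 1 (Hmox1) is induced in stressed glia and in macrophages.

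Promoter windows of 300 bases, from 250 before to 50 after each start site, were taken from RefSeq (GRCm38.p6) for 59 of the 68 genes. These are not the same 59 genes as those tested, since some, such as Aldh9a1, had a window but were not tested. Hmox1, Gclc, Gsta4, Aldh2, Aldh3a1, Aldh3b2, Aldh7a1, Gstt2 and Sod3 had no window and were not searched. The core of the antioxidant response element, TGACNNNGC, was searched on both strands. It was present in a window of 11 of the 59 genes (18.6%), against 14% of all 27025 genes with windows. The 4 windows below are shown because they belong to the 2 genes that were called, Mgst3 and Gstm1, and to 2 genes of the thioredoxin branch whose windows hold the core. Capitals mark the core, which lies on the opposite strand in both.
Mgst3 chr1:167393792-167394091, minus strand: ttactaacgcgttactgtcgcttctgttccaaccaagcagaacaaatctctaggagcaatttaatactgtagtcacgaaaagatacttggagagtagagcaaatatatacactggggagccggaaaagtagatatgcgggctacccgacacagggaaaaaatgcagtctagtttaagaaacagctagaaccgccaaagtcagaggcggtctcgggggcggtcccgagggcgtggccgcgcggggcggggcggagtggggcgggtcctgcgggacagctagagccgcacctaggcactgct
Gstm1 chr3:108017769-108018068, minus strand: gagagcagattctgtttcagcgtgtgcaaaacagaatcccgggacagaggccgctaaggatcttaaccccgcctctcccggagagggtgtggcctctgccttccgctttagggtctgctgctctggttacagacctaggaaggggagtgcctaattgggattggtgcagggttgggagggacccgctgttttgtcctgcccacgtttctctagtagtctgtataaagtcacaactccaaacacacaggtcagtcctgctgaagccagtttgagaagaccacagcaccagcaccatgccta
Txnrd1 chr10:82858956-82859255, plus strand: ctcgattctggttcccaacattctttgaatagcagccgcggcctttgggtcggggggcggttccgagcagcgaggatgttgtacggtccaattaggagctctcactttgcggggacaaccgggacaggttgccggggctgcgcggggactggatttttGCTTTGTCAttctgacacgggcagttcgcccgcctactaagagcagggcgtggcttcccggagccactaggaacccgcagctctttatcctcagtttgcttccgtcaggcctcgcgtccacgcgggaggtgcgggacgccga
Prdx1 chr4:116685349-116685648, plus strand: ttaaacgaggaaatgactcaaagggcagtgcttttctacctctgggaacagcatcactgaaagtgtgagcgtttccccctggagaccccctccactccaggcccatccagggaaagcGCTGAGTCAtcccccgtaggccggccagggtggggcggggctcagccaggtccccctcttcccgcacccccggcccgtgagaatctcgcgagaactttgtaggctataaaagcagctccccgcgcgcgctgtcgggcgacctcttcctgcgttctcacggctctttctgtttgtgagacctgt
The match in the Prdx1 window starts at -133 from the start site and reads TGACTCAGC in the motif's direction, so it also holds the AP-1 motif TGACTCA. The Txnrd1 match starts at -92 and reads TGACAAAGC, and 2 other windows of that gene held none. The other genes with a match were Aldh9a1, which was not tested, and the following, with their differences. They were Gclm (-0.01), Gsta3 (-1.16), Gstm5 (-0.68), Gstm7 (-0.59), Mgst1 (-0.91), Nfe2l2 (0.11), Sod1 (-0.30) and Srxn1 (-1.17). Txnrd1 differed by 1.14 and Prdx1 by 0.36, so genes with the core went both ways. Whether the core goes with a direction was not tested. A match is only letters in a window, and the known elements of several of these genes lie further away.

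Of the 59 genes tested, 2 fell in HoxA5 tumours and 0 rose by limma. Mgst3, a microsomal enzyme with glutathione transferase and peroxidase activity, was 3.24-fold lower, and Gstm1, a cytosolic transferase of the mu class, was 2.90-fold lower. The 2 lower calls are 3.39% of these genes, against 4.64% of all genes called lower and 1.21% called higher (5.85% in either direction). With no adjustment, 6 genes had higher and 11 lower levels at p under 0.05, together 28.8% of the 59, against 24.6% of all genes. The groups did not overlap for 24 of the 59 (40.7%), against 35.5% of all genes. For 9 of these both HoxA5 arrays were above (15.3%, against 18.3% of all genes), and for 15 both were below (25.4%, against 17.2%). Differences were above 0 for 21 of the 59 (35.6%), against 54.8% of all genes. The median difference of the 59 genes was -0.15, and that of all genes tested was 0.07.

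**Figure D1:**
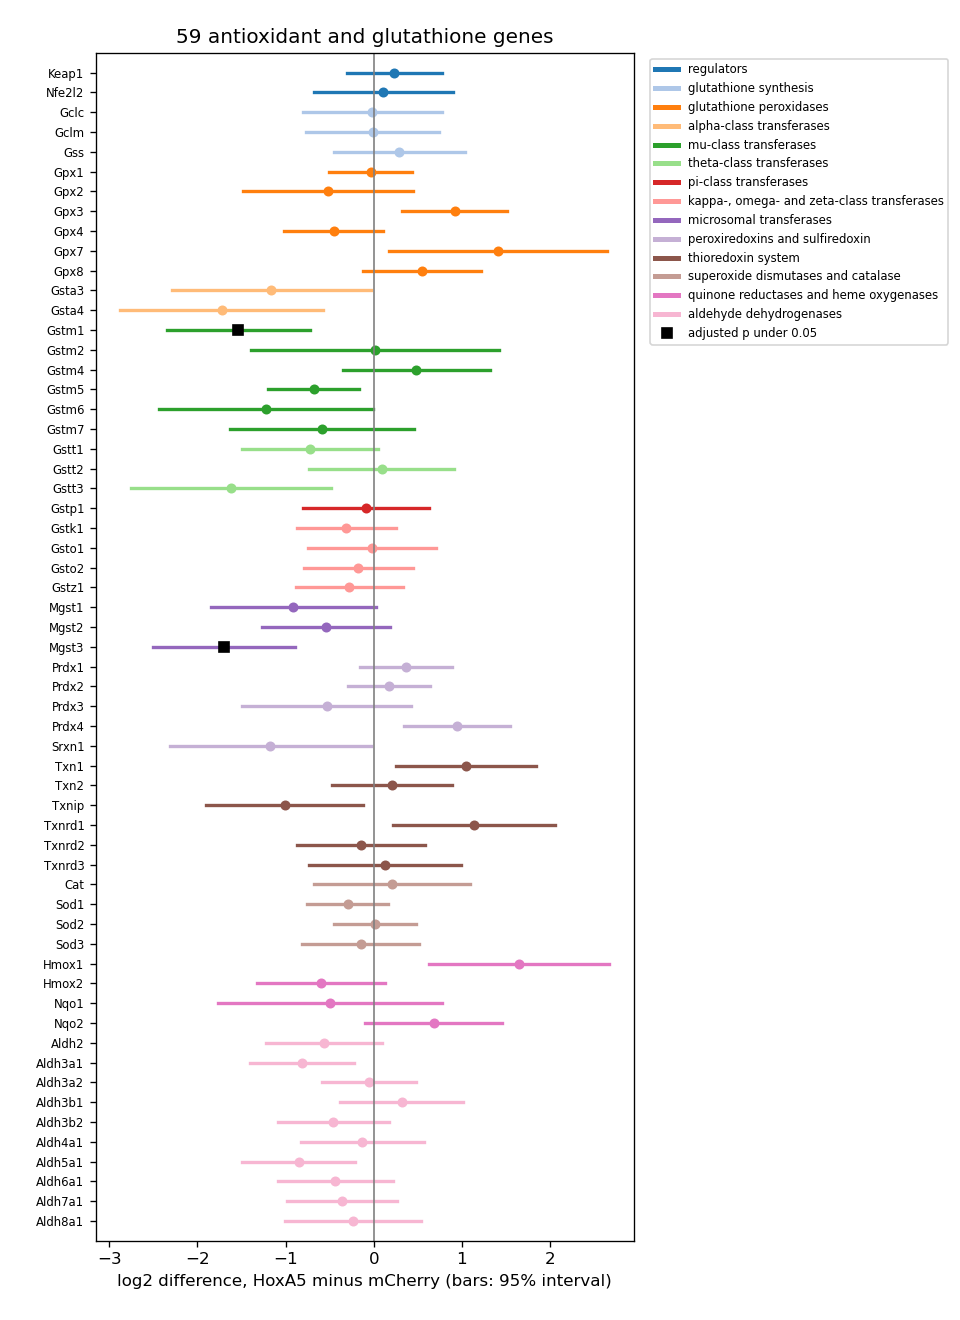
Log2 difference between HoxA5 (n = 2) and mCherry tumours (n = 4) for the 59 tested genes, on the x axis, with genes listed by role on the y axis and bars for the 95% interval of the fit. Mgst3 and Gstm1, as black squares, are the only genes that passed, at -1.70 and -1.54, while Hmox1 lies farthest to the right at 1.65.

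The regulators and the enzymes that make glutathione differed little. Nfe2l2, which encodes NRF2, had levels of 5.30 and 5.89 on the HoxA5 arrays, against 5.95, 5.49, 4.94 and 5.57 on mCherry 1 to 4. The groups overlapped, and the difference of 0.11 had a 95% interval from -0.68 to 0.89. Keap1, the adaptor that marks NRF2 for degradation, differed by 0.23 (-0.30 to 0.77) and was detected by 4 probes with differences from 0.23 to 0.55. Gclc and Gclm, the catalytic and modifier subunits of glutamate-cysteine ligase, which limits glutathione synthesis, differed by -0.02 (-0.80 to 0.77) and -0.01 (-0.77 to 0.74). Gss, which joins glycine to complete glutathione, differed by 0.29 (-0.45 to 1.03), and its 3 detected probes disagreed in direction. None of the 5 had an unadjusted p under 0.05. The intervals leave room for changes of well over 1.5-fold in either direction for Nfe2l2, Gclc and Gclm.

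Glutathione transferases, which couple glutathione to electrophiles, made up 25 of the genes and 19 of those tested. Their differences were below 0 in 16 and above 0 in 3, while 54.8% of all genes were above 0. The median was -0.59, and 2 fell, Mgst3 and Gstm1. HoxA5 arrays were below all mCherry arrays for 9 of the 19, against 17.2% of all genes. Mgst2, in both this count and the 16, was detected on mCherry arrays alone, which favours a negative sign. HoxA5 arrays were above all mCherry arrays for 1, Gstm4, named after its values were seen, against 18.3% of all genes. Their median was -0.375 without background correction and -0.52 with median scaling, where 14 of 19 were below 0. It was -0.38 in the authors' values, which are close to those without background correction.

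Mgst3 was at 9.76 and 9.77 on the HoxA5 arrays and at 11.87, 11.33, 11.99 and 10.66 on mCherry 1 to 4. The HoxA5 arrays were nearly equal and below every mCherry array, of which mCherry 4 came closest. HoxA5 tumours averaged 9.77 ± 0.00935 (SD, n = 2) and mCherry tumours 11.46 ± 0.607 (SD, n = 4), which gave -1.70 (SE 0.360, adjusted p = 0.0287 in limma). A second Mgst3 probe, also detected on all 6 arrays, gave -1.91. The difference ranged from -1.98 to -1.51 when each array was left out, and the gene then passed only without mCherry 3 (adjusted p = 0.0395) and without mCherry 4 (0.00132). The adjusted p was 0.181 without HoxA5 1, 0.205 without HoxA5 2, 0.0861 without mCherry 1 and 0.0685 without mCherry 2. It was 0.0535 with median scaling and 0.0601 with sex, read from Xist and Eif2s3y, as a block.

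Gstm1 was at 9.99 and 9.57 on the HoxA5 arrays, against 11.83, 11.05, 11.77 and 10.62 on mCherry 1 to 4. Both HoxA5 arrays were again lowest and mCherry 4 was nearest to them. The means of 9.78 ± 0.293 (SD, n = 2) in HoxA5 and 11.32 ± 0.583 (SD, n = 4) in mCherry tumours gave a difference of -1.54 (SE 0.361, adjusted p = 0.0406 in limma). A second, dim Gstm1 probe, detected on 4 arrays, gave 0.16, and the mean of both probes differed by -0.69 (adjusted p = 0.248). Of the fits with 1 array left out, the gene passed only without mCherry 4 (adjusted p = 0.00386). The adjusted p was 0.161 without HoxA5 1, 0.262 without HoxA5 2, and 0.105, 0.0779 and 0.0623 without mCherry 1, 2 and 3. It also missed the threshold without background correction (0.0513), with median scaling (0.0650), in the authors' values (0.0516), without an intensity trend (0.0624) and with sex as a block (0.0748). The genes of the mu class are close paralogs, and whether a probe also binds a neighbour's transcript was not tested.

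Gsta4 is an alpha-class enzyme known for conjugating 4-hydroxynonenal, a product of lipid peroxidation. It was at 7.32 and 6.72 in HoxA5 tumours and at 9.15, 8.27, 9.69 and 7.86 in mCherry tumours, a difference of -1.72 (SE 0.512) that did not pass (adjusted p = 0.0788). Gstt3, of the theta class, was at 6.07 and 6.16, against 7.99, 6.96, 8.77 and 7.22, and differed by -1.62 (adjusted p = 0.0891). In both, the groups did not overlap and the mCherry tumours were widely spread (SD 0.833 for Gsta4 and 0.819 for Gstt3, n = 4). Gstm6 was at 6.14 and 6.36 on the HoxA5 arrays, against 8.06, 6.98, 8.40 and 6.47, with a difference of -1.22 (adjusted p = 0.199). Its 3 probes all gave negative differences, but the groups were apart only on this, the brightest, and overlapped on the others. The differences of Gsta4, Gstt3 and Gstm6 were smaller in other processing: without background correction Gsta4 was at -1.15, Gstt3 at -0.845 and Gstm6 at -0.65, and in the authors' values they were at -1.17, -0.87 and -0.67. The order of the mCherry arrays was alike in these genes, with mCherry 1 and 3 above mCherry 2 and 4.

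Of the remaining transferases, those with non-overlapping groups are named after their values were seen. Gstm5, a mu-class enzyme with a high level, was at 11.47 and 11.90 in HoxA5 tumours and at 12.55, 12.32, 12.51 and 12.09 in mCherry tumours, a difference of -0.68 (SE 0.229, adjusted p = 0.111). Mgst1, the microsomal enzyme that protects membranes, was at 7.85 and 8.34, against 9.55, 8.56, 9.53 and 8.38, and differed by -0.91 (adjusted p = 0.214). Gstt1, of the theta class, was at 6.71 and 7.06, against 7.83, 7.48, 7.84 and 7.29, and differed by -0.73 (adjusted p = 0.224). In these 3, too, the HoxA5 arrays were below every mCherry array and mCherry 4 was the nearest. Mgst2 was not above background on either HoxA5 array and passed the filter through 3 mCherry arrays alone. On mCherry 4, at 5.09, it was not detected either. Its mCherry mean was 1.33-fold above the lowest detected signal of the HoxA5 arrays, a bound that leaves out the spread among tumours. The difference of -0.54 had a 95% interval from -1.27 to 0.19 (adjusted p = 0.335 in limma). Gsta3 differed by -1.16 with overlapping groups (adjusted p = 0.191), and Gstm2 varied more between tumours of one group than between groups, at 8.67 and 7.12 in HoxA5 tumours and from 6.82 to 9.03 in mCherry tumours.

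Transferases of the other classes lay closer to 0. Gstp1, of the pi class, differed by -0.09 (-0.81 to 0.63), and its 3 detected probes disagreed in direction. Gstk1, of the kappa class, differed by -0.31 (-0.87 to 0.25), Gsto1, of the omega class, by -0.02 (-0.74 to 0.71) and Gstz1, of the zeta class, by -0.28 (-0.89 to 0.33). With median scaling Gstp1 and Gsto1 turned positive, at 0.06 and 0.17, a setting that moved the median of all genes to 0.20. Gsta1, Gsta2, Gstm3 and Gstt4 were detected on 0 arrays, and Gstp2 and Gstp3 on 1 each, so these 6 transferases were not tested.

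**Figure D2:**
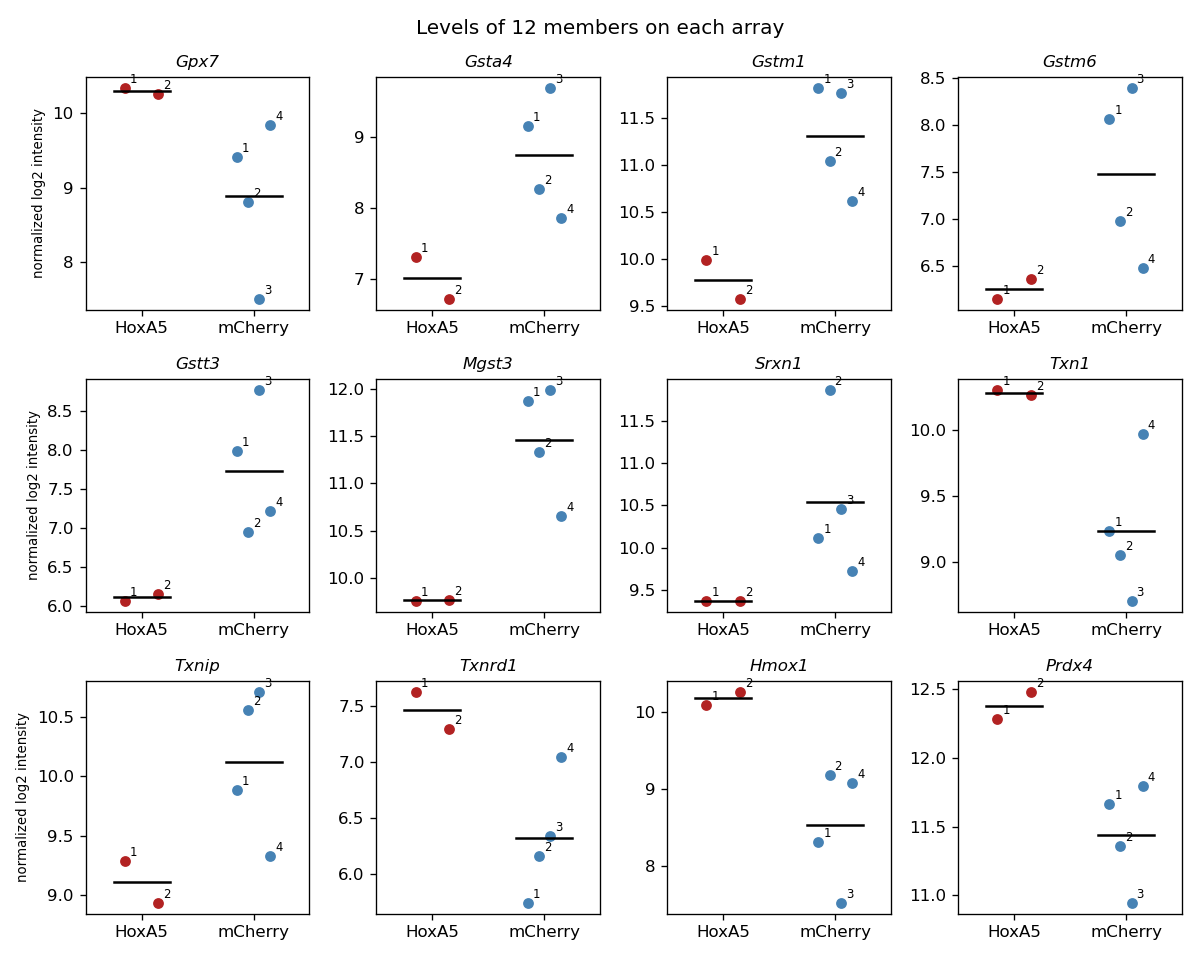
Normalized log2 intensity of 12 genes on each array, on the y axis of each panel, with HoxA5 tumours in red, mCherry tumours in blue, the replicate number beside each point and a line at each group mean. In all 12 panels the HoxA5 points lie outside the range of the mCherry points, and mCherry 4 is the mCherry point nearest to them in 10, all but Gstt3 and Hmox1.

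Glutathione peroxidases, which reduce peroxides with glutathione or other thiols, showed no call among 6 tested, with 2 at an unadjusted p under 0.05 in limma. Gpx1 and Gpx4, the selenium enzymes of the cytosol and of membrane lipid peroxides, differed by -0.03 (-0.50 to 0.43) and -0.45 (-1.02 to 0.11). The 3 Gpx4 probes agreed, at -0.43 to -0.49. Gpx7, a peroxidase of the endoplasmic reticulum, was at 10.34 and 10.26 on the HoxA5 arrays and at 9.41, 8.81, 7.51 and 9.84 on mCherry 1 to 4. All HoxA5 values were higher, and the difference of 1.41 (SE 0.551, adjusted p = 0.157) stood beside a wide spread of mCherry tumours (SD 1.01, n = 4). Gpx3, the secreted plasma enzyme, differed by 0.92 (adjusted p = 0.0714) and Gpx8, also of the endoplasmic reticulum, by 0.55 (adjusted p = 0.288), both with HoxA5 arrays above. These 2 are named after their values were seen. On the dimmest Gpx8 probe the groups overlapped, with HoxA5 1 at 8.91 and mCherry 4 at 8.94. With median scaling Gpx3 was the gene that passed. Gpx5 and Gpx6 were detected on 0 arrays.

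Peroxiredoxins reduce hydrogen peroxide with electrons from thioredoxin, and none of the 4 analysed was called by limma, with 1, Prdx4, at an unadjusted p under 0.05. Prdx4, the secretory-pathway form, was at 12.28 and 12.48 in HoxA5 tumours, against 11.66, 11.36, 10.95 and 11.79 in mCherry tumours. Both HoxA5 values were higher, and the difference was 0.94 (SE 0.268, adjusted p = 0.0699). Prdx1, the abundant cytosolic form, differed by 0.36 (-0.16 to 0.88), Prdx2, also cytosolic, by 0.17 (-0.29 to 0.64) and Prdx3, of mitochondria, by -0.54 (-1.50 to 0.43). Srxn1, sulfiredoxin, repairs over-oxidised peroxiredoxins and is a known NRF2 target. It was at 9.37 and 9.37 on the HoxA5 arrays and at 10.11, 11.87, 10.46 and 9.72 on mCherry 1 to 4. The HoxA5 arrays were the lowest, mCherry 2 stood highest, and the difference was -1.17 (SE 0.506, adjusted p = 0.191), with 3 probes between -1.12 and -1.19.

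In the thioredoxin system 0 of 6 genes were called and 3, Txn1, Txnrd1 and Txnip, had an unadjusted p under 0.05 in limma. Txn1, cytosolic thioredoxin, was at 10.31 and 10.27 on the HoxA5 arrays, against 9.23, 9.05, 8.70 and 9.97 on mCherry 1 to 4, a difference of 1.05 (SE 0.353, adjusted p = 0.111). Txnrd1, the cytosolic reductase that returns thioredoxin to its reduced form, was at 7.63 and 7.29, against 5.74, 6.16, 6.34 and 7.04, with a difference of 1.14 (SE 0.411, adjusted p = 0.131) that shrank to 0.54 when background was left uncorrected and to 0.56 in the values of the authors. For both, the groups did not overlap and mCherry 4 was the highest mCherry array. Txnip, which binds and inhibits thioredoxin and rises with glucose, was at 9.29 and 8.93 in HoxA5 tumours and at 9.89, 10.56, 10.71 and 9.33 in mCherry tumours. Its HoxA5 values were the lowest of the 6, by a narrow margin to mCherry 4, and the difference was -1.01 (SE 0.395, adjusted p = 0.156). On a second, dimmer Txnip probe, with a difference of -0.68, the groups overlapped. The mitochondrial genes Txn2 and Txnrd2 and the testis-enriched Txnrd3 differed by 0.21, -0.15 and 0.13, with overlapping groups.

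Superoxide dismutases, which convert superoxide to hydrogen peroxide, and catalase, which breaks that peroxide down, showed no call, and 0 of 4 had an unadjusted p under 0.05 in limma. Sod1, the cytosolic copper-zinc enzyme, differed by -0.30 (-0.76 to 0.17), Sod2, the mitochondrial manganese enzyme, by 0.01 (-0.45 to 0.48) and Sod3, the extracellular form, by -0.15 (-0.81 to 0.51). Cat differed by 0.21 (-0.68 to 1.10). For Sod2 the interval limits a change in either direction to under 1.5-fold. Groups overlapped for all 4.

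Hmox1, which breaks heme down to biliverdin, iron and carbon monoxide, had the largest positive difference of the 59 genes. It was at 10.09 and 10.27 on the HoxA5 arrays and at 8.32, 9.19, 7.53 and 9.09 on mCherry 1 to 4. The HoxA5 values stood above all mCherry values, which differed widely among themselves (SD 0.773, n = 4). The difference was 1.65 (SE 0.456), and its adjusted p of 0.0639 missed the threshold. Without mCherry 4 it was 1.84 and passed (adjusted p = 0.0193), as it did with array weights (0.0284). These were the only 2 of 17 alternative settings in which Hmox1 passed. With 1 array left out its difference ranged from 1.31 to 1.87. Nqo1, the quinone reductase often read as an NRF2 marker, was detected on 1 of 2 HoxA5 and 3 of 4 mCherry arrays, at 4.76 and 5.94 against 6.62, 5.23, 6.62 and 4.91. Its groups overlapped, with a difference of -0.50 (-1.76 to 0.77). The constitutive Hmox2 differed by -0.60 with overlapping groups, and Nqo2 by 0.68 with HoxA5 arrays above (adjusted p = 0.256). On the dimmest Nqo2 probe the groups overlapped, with HoxA5 1 at 6.98 and mCherry 4 at 6.99.

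Aldehyde dehydrogenases oxidise reactive aldehydes to acids, and none of the 10 tested was called by limma, with 2 at an unadjusted p under 0.05. Differences were below 0 in 9 of 10, while 54.8% of all genes were above 0. Aldh3a1, Aldh3b2 and Aldh7a1, all below 0, were detected on 0 HoxA5 arrays and passed the filter through mCherry arrays alone. That selection favours a negative sign, so these genes do not speak to the direction of the class. The median of the 10 was -0.40 (-0.14 without background correction). With median scaling, 7 of the 10 were below 0, and with the mean of probes 8. Aldh2, the mitochondrial acetaldehyde enzyme, was at 11.41 and 11.19 in HoxA5 tumours and at 11.78, 11.73, 12.49 and 11.45 in mCherry tumours. It was lower in HoxA5 tumours by a narrow margin to mCherry 4, with a difference of -0.56 (-1.22 to 0.09). The 2 with an unadjusted p under 0.05, named after their values were seen, were Aldh5a1, of GABA breakdown, at -0.85 (adjusted p = 0.111) and Aldh3a1 at -0.81 (adjusted p = 0.1003). A second Aldh5a1 probe gave 0.79, so its probes disagreed. Aldh3a1 was not above background on either HoxA5 array. Its mCherry mean was 1.20-fold above the lowest detected signal of the HoxA5 arrays, a bound that leaves out the spread among tumours. Aldh9a1 was detected on 0 arrays.

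Genes of the same pathways outside the rule gave 2 calls. Among 21 NRF2 regulators and targets, with a median of 0.37, Akr1b8, an aldo-keto reductase, rose by 2.16 (SE 0.461, adjusted p = 0.0293). In limma 7 of them had an unadjusted p under 0.05, as did 24.6% of all genes. Differences were positive for Akr1b8, Bach1, Ftl1, Osgin1 and Taldo1 and negative for Slc7a11 and Sqstm1. HoxA5 arrays were above all mCherry arrays for 3 of the 21 and below them for 5, against 18.3% and 17.2% of all genes. Slc7a11, the cystine importer that feeds glutathione synthesis, differed by -1.25 (adjusted p = 0.160) and Bach1, a repressor of Hmox1, by 1.58 (adjusted p = 0.153). G6pdx was not analysed here, and of 9 genes of NADPH supply none was called by limma, 1 had an unadjusted p under 0.05, and the median was 0.32. Of 12 genes of glutathione and cysteine handling none was called, 2 had an unadjusted p under 0.05, and the median was -0.36. Of 8 thiol repair genes none was called, 3 had an unadjusted p under 0.05, and the median was 0.29. Among 6 oxidant sources Maob, monoamine oxidase B, an enzyme of astrocytes that releases hydrogen peroxide, fell by 2.52 (SE 0.502, adjusted p = 0.0233). The median of these 6 was 0.61. Differences were positive for Cyba, Ncf1, Ncf4 and Nox4 and negative for Xdh, none of them called.

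**Figure D3:**
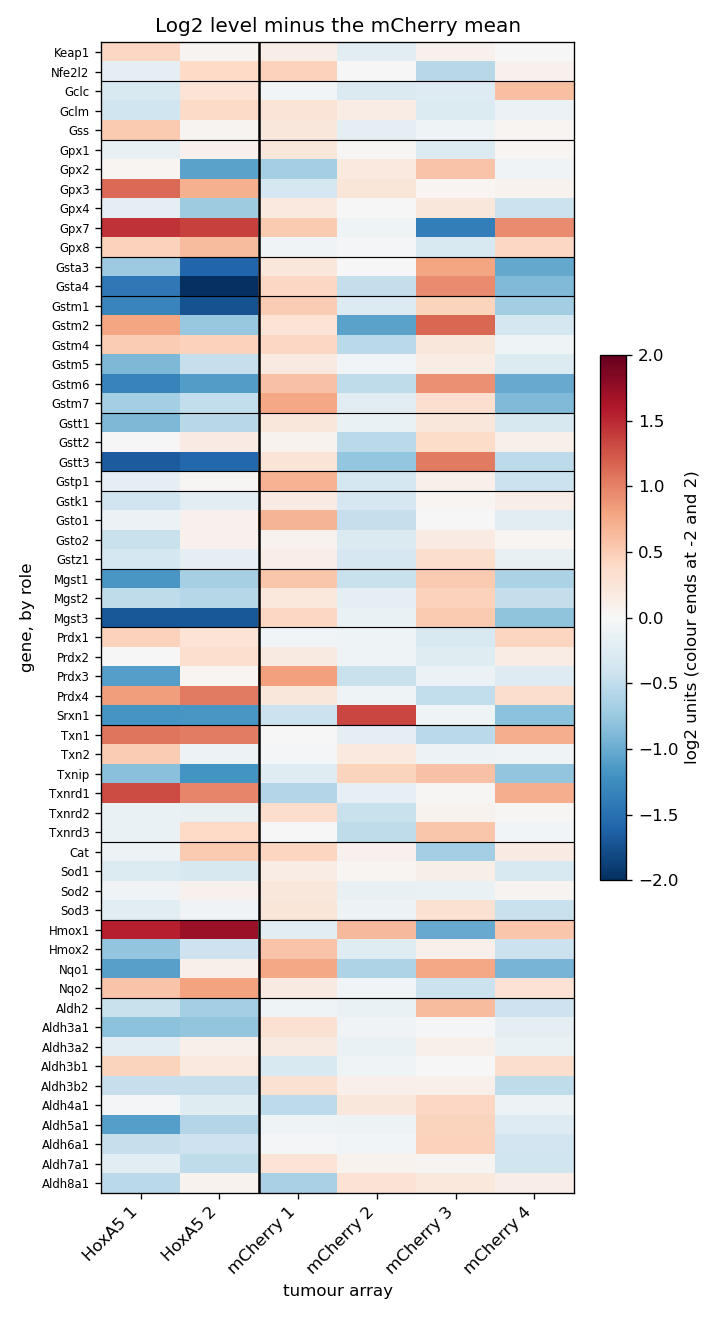
Level of each of the 59 genes on each array minus the mean of the mCherry arrays, in log2 units by colour, with arrays on the x axis (HoxA5 left of the line) and genes on the y axis in the order of their roles. Transferases are mostly blue and Hmox1, Gpx7, Txn1 and Txnrd1 red in the HoxA5 columns, and mCherry 4 often has the HoxA5 colour in paler form.

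The mCherry tumours were not alike, in these genes or over all genes. Of the 24 genes whose groups did not overlap, the mCherry array nearest to the HoxA5 arrays was mCherry 4 for 20, mCherry 2 for 3, mCherry 1 for 1 and mCherry 3 for 0. Over all 4347 genes whose groups did not overlap it was mCherry 4 for 69.8%, against 83.3% of the 24, and across all genes mCherry 4 correlated with the HoxA5 arrays at 0.963 and 0.962, against 0.921 to 0.957 with the other mCherry arrays. Without mCherry 4, 6 of the 59 genes were called higher and 8 lower. Of all 12112 genes tested in that fit, 1038 were higher and 1370 lower, up from 148 and 568 with all arrays. The rise in calls was therefore not particular to the 59 genes. The 14 were Gpx3, Gpx7, Hmox1, Prdx4, Txn1 and Txnrd1 on the higher side and Gsta3, Gsta4, Gstm1, Gstm5, Gstm6, Gstt3, Mgst3 and Txnip on the lower. Without HoxA5 1, HoxA5 2, mCherry 1 or mCherry 2, 0 of these genes were called by limma in either direction, and Mgst3 alone passed without mCherry 3. Fits without a HoxA5 array rest on 1 HoxA5 tumour, taken to vary as the mCherry tumours do.

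Markers of other cell types moved with these groups, and they are given because several of these enzymes are made by particular cells. Of 8 neuron markers 7 fell, and the mean level of the list was 8.32 to 9.26 in HoxA5 tumours and 10.83 to 12.14 in mCherry tumours. The neuron marker Slc12a5 was undetected on both HoxA5 arrays. Of 7 markers of myelinating oligodendrocytes 6 fell, with list means of 8.29 to 9.14 against 10.44 to 11.48. Of 9 markers of astrocytes, where mu-class transferases are abundant, 2 fell, Gja1 (-1.28) and Gjb6 (-2.90), with list means of 11.06 to 11.11 against 11.35 to 12.02. The astrocyte markers did not go one way: Gfap differed by 0.18, Aqp4 by -0.01 and Sox9 by 0.55, none of them called. Of 6 choroid plexus and ependyma markers 3 fell, Ttr (-8.37), Clic6 (-3.65) and Kl (-2.72), while Aqp1 differed by 1.08 and Foxj1 by 0.24 with overlapping groups. The list means were 5.93 to 6.00 against 7.72 to 9.71, with Ttr the largest single difference, and Kl and Folr1 were not above background on HoxA5 arrays. The mCherry 4 array had the lowest mCherry mean for all 4 of these lists.

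Other lists were higher or similar. Of 6 fibroblast and meninges markers 4 rose, with list means of 9.78 to 10.89 in HoxA5 and 7.45 to 8.78 in mCherry tumours, and of 4 markers of dividing cells 3 rose, with 10.12 to 10.25 against 5.87 to 9.05. Of 4 monocyte and neutrophil markers 0 passed in limma, although all 4 had an unadjusted p under 0.05, with list means of 7.08 to 7.63 against 5.12 to 6.75. Microglia and macrophage markers gave 0 of 9 calls, with 0 at an unadjusted p under 0.05 in limma, and means of 9.36 to 9.41 against 9.03 to 9.52. Endothelial markers gave 0 of 6 calls, also with 0 at an unadjusted p under 0.05, and the same held for 2 red cell markers. The part of these cell types in the values of the transferases, Hmox1 and the other genes was not tested. In such bulk tissue, fewer cells of a type and less RNA per cell cannot be told apart.

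**Figure D4:**
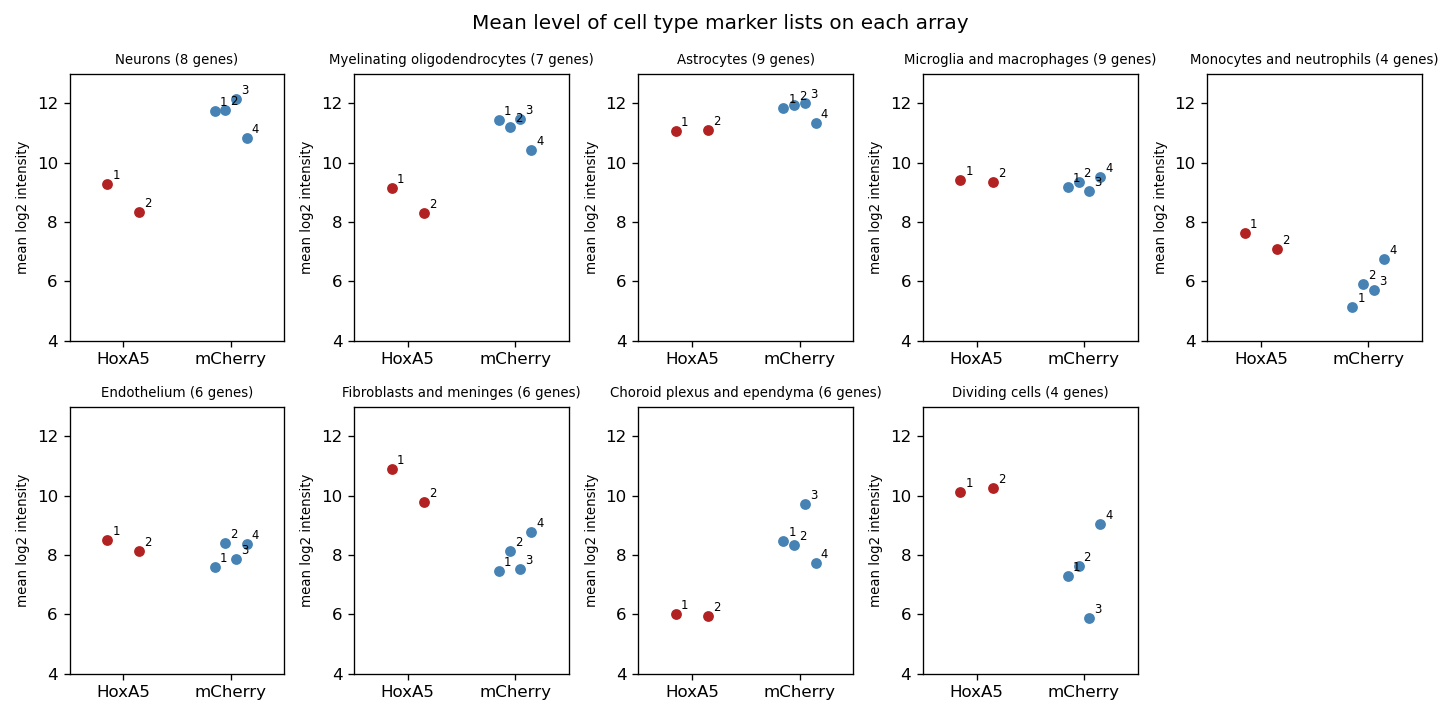
Mean normalized log2 intensity of 9 marker lists on each array, on the y axis, with HoxA5 tumours in red, mCherry tumours in blue and the replicate number beside each point. HoxA5 tumours lie below all mCherry tumours for neurons, myelinating oligodendrocytes, astrocytes and choroid plexus, above them for fibroblasts, monocytes and dividing cells, and among them for microglia.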

How the data were processed

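Bead arrays of 6 tumours were analysed. The authors deposited intensities that their file name calls non-normalized, linear and from 102.5 upwards. Beside each stands a detection p-value, per the file headers. The authors deposited processed log2 values in a second table, for which the submitters' processing notes name limma, with no version or step. Its columns have almost equal quantiles, and the sources used here do not give its background step. Its values lay within 0.121 of the log2 intensities normalized by quantiles without background correction. The setting without background correction and the authors' values are therefore close to the same processing, and do not stand as separate checks. Groups came from the sample titles.

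Intensities were put through neqc in limma 3.58.1 (R 4.3.3), which corrects background, adds an offset of 16, normalizes by quantiles and takes log2. The offset understates differences of dim genes, and quantiles can spread a one-sided change over other genes. Of 45281 probes, 34885 had 1 platform symbol, 18 several and 10378 none. Probes with 1 symbol that 2 or more arrays detected (p under 0.05; 19479) were kept, and each gene was taken by its brightest probe. The groups were compared with lmFit and eBayes with an intensity trend (4 residual degrees of freedom) and Benjamini-Hochberg adjustment over 12242 genes. The number of arrays limits precision. The procedure was tested on simulated data. Where a gene was not above background in a group, its fold is a bound, set against the lowest detected signal. The bound compares group means and takes no account of their spread.

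Members, lists and tests were chosen with earlier results of these data known. Named genes were those called, those with non-overlapping groups and a difference of at least 1, a set of core enzymes and regulators, and the highest-level gene of each class left without one. Gene symbols and promoter windows were matched by gene ID to RefSeq (GRCm38.p6), and the arrays name no build.

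Titles number the tumours in both groups. Deviations from the group mean correlated at -0.364 for the tumours numbered 1 and -0.236 for those numbered 2. With 2 HoxA5 tumours the deviations mirror each other, so these values cannot show whether the numbers pair samples. Alternatives were no background correction, median scaling, the authors' values, other detection filters, the mean of a gene's probes, eBayes without trend or robust, weighted arrays, a block for replicate number or for sex, a looser threshold and leaving out each array.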

Additional observations from a re-analysis of the deposited data

Results flagged for a closer look

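Across the 59 tested genes, 1 had a mCherry tumour far from the other 3 of its group. Aldh8a1, an aldehyde dehydrogenase, was at 4.52 on mCherry 1, against 5.31 to 5.47 on mCherry 2 to 4, and the gap was 0.837 of the group's range. Chance marks about 1 in 20 such groups. Its level was low, detected on 1 of 2 HoxA5 and 3 of 4 mCherry arrays, and its difference of -0.23 did not pass (adjusted p = 0.708 in limma).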

How the results depend on the processing

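The median difference of the 59 genes stayed negative in each setting run (-0.24 to -0.07 with 1 array left out), and median scaling, which moved the median of all genes from 0.07 to 0.20, put it at -0.08. All genes called higher and lower were 148 and 568. They were 159 and 370 without background correction, 265 and 437 with median scaling, 144 and 362 in the authors' values, 95 and 453 without a detection filter, 642 and 1104 with array weights, 31 and 307 with sex as a block, and 506 and 1003 at an adjusted p under 0.10. Leaving out 1 array gave 0 to 1038 higher and 2 to 1370 lower. With the replicate number as a block, although no label states a pairing, they were 236 and 669, and the same genes, Mgst3 and Gstm1, passed. Of the antioxidant and glutathione genes, 0 higher and 2 lower passed. The counts were 0 and 1 without background correction, in the authors' values, with the mean of probes and without a trend (Mgst3 each time), 1 and 0 with median scaling (Gpx3), 5 and 4 with array weights, 0 and 0 with sex as a block, and 3 and 4 at an adjusted p under 0.10. With 1 array left out they were 0 to 6 and 0 to 8. Counts of genes with HoxA5 arrays above and below all mCherry arrays, settings added after the data were seen, were 9 and 15, became 12 and 9 with median scaling, and were 9 to 14 and 14 to 23 with 1 array left out. The share of all genes whose groups do not overlap moved as well, from 35.5% to 39.6% with median scaling, 57.2% without HoxA5 1 and 59.6% without HoxA5 2.

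Signs were followed for the 32 named genes, and turned only in some whose difference was not called. By class, median scaling moved the number above 0 from 1 to 3 of 10 aldehyde dehydrogenases and from 4 to 5 of 6 thioredoxin genes, and the mean of probes moved it from 1 to 0 of 3 theta-class transferases. With median scaling Gclc was at 0.0261, Gclm at 0.17, Gpx1 at 0.17, Gsto1 at 0.17 and Gstp1 at 0.0601. With the replicate block Cat was at -0.0538, Gclc at 0.15, Nfe2l2 at -0.13 and Sod2 at -0.027. With the mean of probes Gstp1 was at 0.16, Prdx2 at -0.0385 and Sod1 at 0.0655, and with array weights Gclc at 0.0633. With 1 array left out the range was -0.10 to 0.52 for Cat, -0.31 to 0.27 for Gclc, -0.40 to 0.38 for Gclm, -0.141 to 0.0798 for Gpx1, -0.17 to 0.21 for Gsto1, -0.23 to 0.14 for Gstp1, -0.19 to 0.40 for Nfe2l2, -1.08 to 0.0943 for Nqo1, -1.10 to 0.0387 for Prdx3 and -0.0661 to 0.0942 for Sod2. The cause of the turned signs was not tested. Fits with fewer arrays have fewer degrees of freedom, which bears on p-values and not on signs.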
